A study of Homo sapiens with 92 samples.

Results

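The genes described here are the annotated antisense RNAs of these cells whose names end in -AS1, each beside the gene on the other strand that gave it its name. An RNA was taken when its mean was at least 5 converted reads per library over the 12 libraries made 4, 6 or 8 h after release from mitosis. SBF2-AS1, GATA6-AS1, CYP1B1-AS1, HAS2-AS1 and EPB41L4A-AS1 were left out. This gave 344 RNAs, out of 1016 genes with such a name and 48878 genes in all. They were chosen by their mean count of converted reads over both drug arms, and their levels are given below as a description only. Just inside the minimum lay NPPA-AS1, KANSL1-AS1 and TAF1A-AS1 with means of 5.08, 5.17 and 5.25 converted reads, and just outside lay RGMB-AS1, DSG1-AS1 and BOLA3-AS1 with 4.92 each. A sense gene of the same stem was found for 338 RNAs and through an older symbol for 3, while RPARP-AS1, PGM5P3-AS1 and ST20-AS1 had none.

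New RNA was measured by SLAM-seq, in which cells take up 4-thiouridine (4sU) and labelled bases are read as T-to-C conversions, so a converted read comes from RNA made during the label. The series asks what NIPBL, the loader of the loop-extruding cohesin ring, does for transcription after mitosis and in cells that no longer divide. The main cells were hTERT RPE-1, a human line from retinal pigment epithelium immortalised with telomerase, all of the clone NIPBL-D7. Both arms of this clone carry mGreenLantern and the FKBP12(F36V) degron on NIPBL. The degrader dTAGV-1 (dTAG), which recruits the VHL ubiquitin ligase to the degron, was compared with its vehicle DMSO. Cells were synchronised with thymidine and arrested for 120 min in nocodazole at 20 ng/ml, and the mitotic cells were collected by shake-off and released. For the mitosis series dTAG or DMSO was added with nocodazole and kept on, whereas for the release series it was added at release.

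With 15 min of 4sU the mitosis series had 2 dTAG and 2 DMSO libraries at each of 4, 6 and 8 h. Earlier it had 4 dTAG and 3 DMSO libraries at 0 min, 3 of each at 30 min, 4 of each at both 60 and 90 min, and 3 dTAG and 4 DMSO libraries at 120 min. The release series had 3 libraries in each arm at 30, 60, 90 and 120 min. With 120 min of 4sU each series had 3 libraries in each arm. Cardiomyocytes and neurons, 2 libraries in each arm and type, had 4 h of drug and 120 min of 4sU. Their titles name cells derived from the pluripotent line WTC11, while their cell line and source labels name hTERT RPE-1.

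Over 4 to 8 h the libraries held 2.74 to 4.58 M converted reads (M for 1e6) in dTAG and 4.28 to 6.17 M in DMSO, so depth moved with the arm, and its part in the results was not tested. Of 11 genes listed for RPE-1 cells, RPE65, RLBP1 and TYR were under 1 CPM (converted reads per 1e6 converted reads of a library, scaled by TMM) in these cells. The list is not specific to them, since KRT8 had 312 CPM in RPE-1 cells and 413 CPM in cardiomyocytes. In the cardiomyocytes 8 of 8 cardiac markers, and in the neurons 7 of 8 neuronal markers, were at 1 CPM or more. TUBB3 was below. This level did not separate the cells. In the cardiomyocytes only TUBB3 and STMN2 of the neuronal markers were under it, and SYT1 had 516 CPM in RPE-1 cells against 269 CPM in neurons. Of 9 markers of pluripotent or other cells, POU5F1 and NANOG were under 1 CPM in both cultures and the rest reached it. Among these LIN28A had 142 CPM in cardiomyocytes and 223 CPM in neurons. The purity of the cultures was not tested. No label says that replicates were separate cultures, so p-values measure the spread between these libraries. In bulk RNA, fewer cells making an RNA and less of it per cell cannot be told apart. Whether reads were counted by strand is not given in the sources used here. Without strand, reads of an antisense RNA and of the sense gene it overlaps cannot be told apart.

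Antisense RNAs of this kind are long noncoding transcripts made from the strand opposite a known gene. Many start within a short distance of a protein-coding promoter and run away from it, since many mammalian promoters are transcribed in both directions. Others lie inside the sense gene or meet its far end, and they are often short-lived, which makes labelled new RNA a suitable measure of them. By the coordinates in the files (hg38), 159 of the 344 RNAs were classed as head to head with the sense gene. Their starts lay on opposite strands within 2 kb of each other, at a median distance of 366 bp. This class was set by strand and distance alone, so it also holds pairs whose 5′ ends overlap. STXBP5-AS1 and STXBP5, by the RefSeq starts used below, are such a pair. In all other arrangements the starts were farther apart. In 77 pairs the genes were tail to tail, in 67 one gene lay inside the other, in 36 the 5′ parts overlapped, and 2 pairs lay apart. The median gene length was 30.7 kb, and 7 RNAs were on chromosome X.

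Promoter windows of 300 bases, 250 before and 50 after a RefSeq start (GRCh38.p14), matched 211 of the 344 RNAs. Windows of 4 antisense RNAs and 1 sense gene are shown, chosen after their values were seen. LURAP1L-AS1 had the highest change of the RNAs tested, and the others are examples of head-to-head pairs, in which STXBP5-AS1 and POT1-AS1 rose and DLG1-AS1 and DLG1 fell. Capitals mark every match, on either strand, to 7 motifs, which were the GC box GGGCGG, the CCAAT box, the TATA box TATAAA, the AP-1 site TGANTCA, the TEAD site CATTCC, the E box CACGTG and the ETS site CCGGAAG. LURAP1L-AS1 lies at chr9:12814340-12814639 on the minus strand, STXBP5-AS1 at chr6:147204565-147204864 on the minus strand and STXBP5 at chr6:147204167-147204466 on the plus strand. POT1-AS1 lies at chr7:124929623-124929922 and DLG1-AS1 at chr3:197297997-197298296, both on the plus strand.
LURAP1L-AS1: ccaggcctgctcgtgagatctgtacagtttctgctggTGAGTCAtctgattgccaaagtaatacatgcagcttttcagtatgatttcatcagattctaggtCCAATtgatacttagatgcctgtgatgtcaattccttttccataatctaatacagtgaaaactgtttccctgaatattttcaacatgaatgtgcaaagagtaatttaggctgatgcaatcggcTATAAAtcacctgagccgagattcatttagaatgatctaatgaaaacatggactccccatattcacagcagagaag
STXBP5-AS1: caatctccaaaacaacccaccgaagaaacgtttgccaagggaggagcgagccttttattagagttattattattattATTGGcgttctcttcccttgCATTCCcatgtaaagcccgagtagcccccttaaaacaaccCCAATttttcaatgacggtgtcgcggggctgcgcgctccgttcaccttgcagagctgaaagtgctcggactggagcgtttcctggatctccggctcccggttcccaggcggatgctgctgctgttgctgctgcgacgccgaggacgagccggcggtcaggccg
STXBP5: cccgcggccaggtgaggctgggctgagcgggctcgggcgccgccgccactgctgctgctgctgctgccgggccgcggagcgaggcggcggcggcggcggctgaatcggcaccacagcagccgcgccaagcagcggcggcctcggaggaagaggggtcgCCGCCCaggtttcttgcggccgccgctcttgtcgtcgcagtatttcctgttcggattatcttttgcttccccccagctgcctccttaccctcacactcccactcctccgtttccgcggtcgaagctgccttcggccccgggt
POT1-AS1: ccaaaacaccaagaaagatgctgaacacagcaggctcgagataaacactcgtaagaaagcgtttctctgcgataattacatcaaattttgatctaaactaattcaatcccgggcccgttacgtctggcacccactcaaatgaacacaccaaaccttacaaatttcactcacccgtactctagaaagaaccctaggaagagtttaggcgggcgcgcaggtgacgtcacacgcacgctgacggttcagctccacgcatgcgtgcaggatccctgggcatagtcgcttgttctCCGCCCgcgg
DLG1-AS1: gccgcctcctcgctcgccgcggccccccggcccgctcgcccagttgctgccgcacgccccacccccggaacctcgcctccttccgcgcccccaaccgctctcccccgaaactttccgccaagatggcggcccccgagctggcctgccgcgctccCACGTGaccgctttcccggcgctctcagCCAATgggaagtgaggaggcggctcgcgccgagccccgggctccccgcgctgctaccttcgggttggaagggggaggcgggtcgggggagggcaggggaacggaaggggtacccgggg
The windows of STXBP5-AS1 and STXBP5 share no base, with RefSeq starts 197 bp apart. Those of POT1-AS1 and POT1 share 147 bases with starts 48 bp apart, and those of DLG1-AS1 and DLG1 share 211 with starts 112 bp apart. Distances between starts given below are by the coordinates in the files and differ from these. The STXBP5-AS1 window holds 2 CCAAT boxes and 1 TEAD match, and the STXBP5 window 1 GC box. The LURAP1L-AS1 window holds 1 CCAAT box, 1 TATA box and 1 AP-1 match. Of the 259 windows of the antisense RNAs, 57.1% hold a GC box, 32.4% CCAAT, 6.95% TATAAA, 5.41% the AP-1 site, 15.1% the TEAD site, 8.88% the E box and 13.9% the ETS site. The 35116 RefSeq promoter windows hold them at 45%, 34.6%, 11.5%, 7.71%, 14%, 7.26% and 10.3% in the same order. These matches describe letters only.

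Mean levels over the 12 libraries ran from 5.08 to 1400 converted reads with a median of 24.6. Only 57 RNAs had 100 or more, and 77 had fewer than 10. Per kilobase of gene span, the median was 0.987 converted reads for the antisense RNAs and 4.36 for their partners, and the antisense RNA was the higher of the pair in 101 of 341 pairs. This count includes pairs such as that of NDUFV2, whose sense gene is listed with no converted read, a value that may not be its level. The percentage of reads with a conversion draws on the converted reads that chose the antisense RNAs, and it is a description only. The median percentage of reads with a conversion was 8.69% for the antisense RNAs and 7.05% for the sense genes, against 7.17% over all genes tested. In 294 pairs with at least 5 converted sense reads the antisense percentage was higher in 185. The RNAs took 0.656 ± 0.0269% of the converted reads in dTAG and 0.585 ± 0.0265% in DMSO (SD, n = 6 each), with ranges of 0.612 to 0.689% and 0.558 to 0.622%.

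At 4 to 8 h, the question was which antisense RNAs changed after NIPBL loss and whether their sense partners moved with them. Of the 344 RNAs, 311 passed the filter on low counts. Averaged over the 3 times, 28 were lower and 34 higher in dTAG at an adjusted p under 0.05 by edgeR's quasi-likelihood test, or 19.9% of those tested. Over all 14567 genes tested 19.8% were called (10.7% lower and 9.07% higher), so the antisense RNAs changed about as often as genes at large. Their median log2 change was 0.03, against 0.01 over all genes. Counting all reads, not only converted ones, gave a split of 44 lower and 28 higher. The direction at 4, 6 and 8 h was the same for 28 of the 28 lower and 33 of the 34 higher RNAs. Since the calls were made on the average of these same 3 times, this agreement is partly set by the choice. All 6 dTAG libraries lay below all 6 DMSO libraries for 8 RNAs and above them for 14, where 3.92% and 2.65% of all genes did so. The 33 RNAs that did not pass the filter have no test. In 27 of the 344 RNAs the mean was 5 or more in 1 arm only, dTAG for 3 and DMSO for 24, and 1 of the 27 was called.

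**Figure D1:**
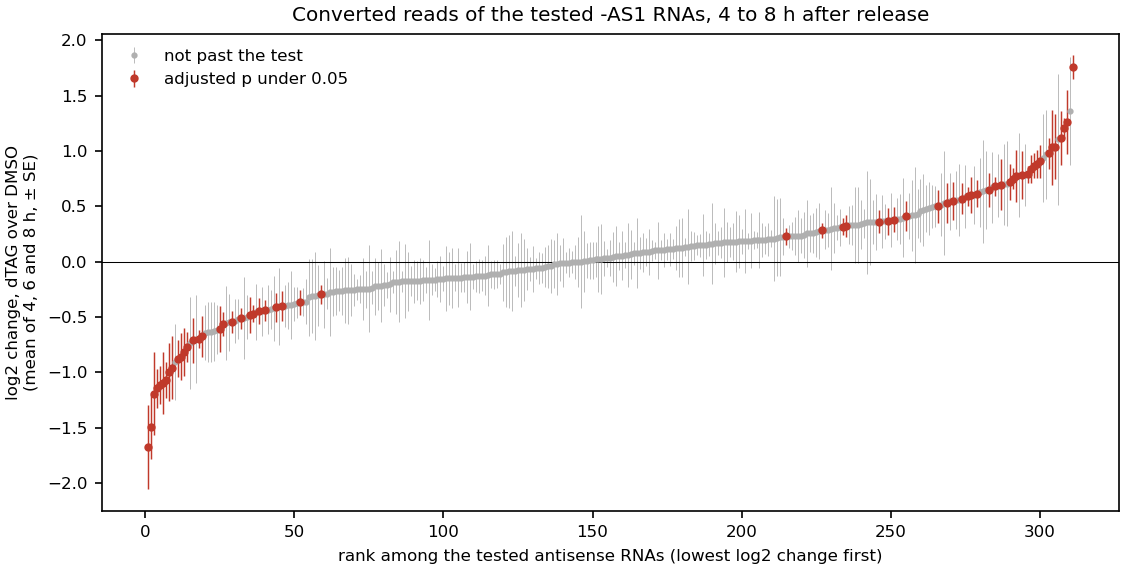
Log2 change (dTAG over DMSO, mean of 4, 6 and 8 h, on the y axis) of the 311 tested antisense RNAs in order of size (rank on the x axis), with bars for the standard error and red for an adjusted p under 0.05. Values run from -1.67 to 1.76, with 28 called RNAs at the lower end and 34 at the upper.

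The 10 largest falls that met the naming rule (a mean of at least 10 converted reads and 1 direction at the 3 times) ran from -1.50 to -0.86. FRMD6-AS1, FUT8-AS1 and HLX-AS1 had means of 1.85, 1.62 and 1.59 CPM in dTAG against 5.04, 3.66 and 2.94 CPM in DMSO. They reached the mean of 10 through the DMSO arm, where they were high. Their falls are partly set by this choice. The same may hold for DLG1-AS1 (2.17 against 4.35 CPM) and SOX9-AS1 (2.39 against 5.02 CPM). FRMD6-AS1 (chr14:51649516-51651744, minus strand) lies inside FRMD6, which encodes a FERM-domain protein upstream of the Hippo pathway. It had 0.532, 2.02 and 2.53 CPM (lowest, median and highest) in dTAG, against 3.03, 5.01 and 7.02 CPM in DMSO. The arms did not overlap, and the fall was 1.50 ± 0.29 on the log2 scale (-1.50, SE; adjusted p = 0.00115). FRMD6 itself fell by 0.48 ± 0.08, with 1110, 1390 and 2230 CPM in dTAG against 1580, 2250 and 2780 CPM in DMSO, and its arms overlapped.

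HHIP-AS1 lies beside HHIP, whose product binds Hedgehog ligands. The antisense RNA had 3.54, 5.11 and 6.52 CPM in dTAG, against 8.38, 9.95 and 13.7 CPM in DMSO, and it fell by 1.07 ± 0.16 (adjusted p = 0.00013). HHIP had 128, 170 and 331 CPM in dTAG, against 660, 736 and 1010 CPM in DMSO, and fell by 2.07 ± 0.11. Neither gene's arms overlapped. SP2-AS1, tail to tail with SP2 (a zinc finger transcription factor), had 4.57, 7.46 and 9.17 CPM in dTAG, against 11.7, 14.8 and 17.3 CPM in DMSO, again without overlap. It fell by 1.11 ± 0.17 (adjusted p = 0.000125), while SP2 had a log2 change of 0.14 ± 0.11 (adjusted p = 0.449), with 19.8, 26.4 and 29.3 CPM in dTAG and 20.9, 22.4 and 26.2 CPM in DMSO. EMC3-AS1, named for a subunit of the endoplasmic reticulum membrane complex, had 4.58, 7.27 and 9.14 CPM in dTAG, against 10.9, 12.4 and 16.8 CPM in DMSO. Its arms did not overlap, and it fell by 0.88 ± 0.17 (adjusted p = 0.000869).

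For the other named falls the arms overlapped. DDX11-AS1 starts 3 bp from DDX11, a helicase of sister chromatid cohesion, and had 2.17, 5.29 and 8.75 CPM in dTAG, against 6.55, 10.9 and 19.1 CPM in DMSO. It fell by 1.14 ± 0.18 (adjusted p = 0.00013) and DDX11 fell by 0.76 ± 0.14; DDX11 has near-identical copies, so these counts are uncertain. DLG1-AS1, named for a scaffold of cell polarity, had 1.16, 1.97 and 3.61 CPM in dTAG, against 2.53, 4.86 and 5.12 CPM in DMSO. It fell by 1.00 ± 0.26 (adjusted p = 0.0109; 0.0536 with DESeq2, and called in 17 of 18 alternative settings), and DLG1, with 1450, 2120 and 3270 CPM in dTAG against 3150, 3750 and 4780 CPM in DMSO, fell by 0.82 ± 0.09. PRR7-AS1 fell by 0.86 ± 0.21 (adjusted p = 0.00757), with 3.76, 4.14 and 5.32 CPM in dTAG against 3.82, 8.38 and 11.9 CPM in DMSO.

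SOX9-AS1, beside the developmental transcription factor SOX9, had 0.807, 2.55 and 3.75 CPM in dTAG, against 3.05, 4.24 and 9.03 CPM in DMSO. It fell by 1.10 ± 0.28 (adjusted p = 0.00941; 0.0539 without dTAG replicate 1 at 4 h, and called in 17 of 18 alternative settings), and SOX9 fell by 0.63 ± 0.11. FUT8-AS1, named for the enzyme of core fucosylation, had 0.233, 1.38 and 3.19 CPM in dTAG, against 2.37, 3.73 and 4.6 CPM in DMSO. Its fall of 1.19 ± 0.38 (-1.19; adjusted p = 0.0324) missed the threshold, at 0.061 to 0.111, without dTAG replicate 1 at 4, 6 or 8 h, DMSO replicate 1 at 6 h or DMSO replicate 2 at 4 or 8 h. With DESeq2 it was 0.0564, so that FUT8-AS1 was called in 11 of 18 alternative settings. FUT8 fell by 0.79 ± 0.08, with 313, 349 and 512 CPM in dTAG against 513, 628 and 856 CPM in DMSO. HLX-AS1, named for a homeobox gene, had 0.538, 1.65 and 2.5 CPM in dTAG, against 1.78, 3.38 and 3.73 CPM in DMSO. Its fall of 0.96 ± 0.28 (-0.96; adjusted p = 0.0232) missed the threshold, at 0.0507 to 0.111, without dTAG replicate 1 at 4 or 8 h, dTAG replicate 2 at 6 h, DMSO replicate 1 at 4 h or DMSO replicate 2 at 8 h. With DESeq2 it was 0.155, so that HLX-AS1 was called in 12 of 18 alternative settings.

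RASAL2-AS1 was under the minimum level for naming and is given after its values were seen, as a description only. It had 0.269, 0.58 and 1.16 CPM in dTAG, against 0.949, 2.26 and 2.8 CPM in DMSO, a log2 change of -1.67. Its means were 2.67 converted reads in dTAG and 10.2 in DMSO, so it reached the minimum of 5 through the DMSO arm, where it was high.

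The 10 largest rises that met the rule ran from 0.87 to 1.76. LURAP1L-AS1 (chr9:12700100-12814345, minus strand), whose promoter window is printed above, had the highest change of the 311. At 4 h it had 215.6 and 212 CPM in dTAG, against 43.9 and 50.4 CPM in DMSO. At 6 h it had 145 and 125 CPM in dTAG, against 52.6 and 43.3 CPM in DMSO. At 8 h it had 110 and 72.3 CPM in dTAG, against 33.5 and 26.8 CPM in DMSO. Every dTAG library lay above every DMSO library, and the rise was 1.76 ± 0.11 (adjusted p = 2.1e-09). Its partner LURAP1L had 80.7, 106 and 130 CPM in dTAG and 80.1, 94.7 and 114 CPM in DMSO, with a change of 0.18 ± 0.09 that did not pass the test (adjusted p = 0.225).

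STXBP5-AS1 (chr6:146841901-147204614, minus strand) starts, in the files, 190 bp from STXBP5, the gene of tomosyn, which inhibits the assembly of SNARE complexes for vesicle fusion. At 4 h it had 254 and 228 CPM in dTAG, against 92.8 and 123 CPM in DMSO. At 6 h it had 179 and 171 CPM in dTAG, against 84.1 and 80 CPM in DMSO. At 8 h it had 190 and 144 CPM in dTAG, against 69.6 and 60.4 CPM in DMSO. The arms did not overlap, and STXBP5-AS1 rose by 1.21 ± 0.09 (adjusted p = 3.5e-08). STXBP5 had 207, 235 and 339 CPM in dTAG and 243, 307 and 314 CPM in DMSO, with a change of -0.22 ± 0.08 that did not pass (adjusted p = 0.0857). STXBP5 did pass in 4 of 18 alternative settings, with -0.28 (adjusted p = 0.0232) without DMSO replicate 1 at 4 h, -0.27 (0.0404) without DMSO replicate 1 at 6 h, -0.23 (0.0451) without a filter and -0.33 (0.0429) with all reads. POT1-AS1, which by the files lies 111 bp from the start of the telomere-binding protein gene POT1, had 18.6, 19.5 and 27.9 CPM in dTAG, against 8.37, 12 and 16.7 CPM in DMSO. It rose by 0.88 ± 0.13 (adjusted p = 7.4e-05), while POT1 had 48.2, 64.2 and 75.4 CPM in dTAG and 58.1, 67.8 and 81.6 CPM in DMSO, with a change of -0.16 (adjusted p = 0.206).

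ZMIZ1-AS1, named for a PIAS-like transcriptional coactivator, had 106, 132 and 161 CPM in dTAG, against 48.1, 60.4 and 86.5 CPM in DMSO. It rose by 0.98 ± 0.14 (adjusted p = 7.4e-05) without overlap of the arms. DLGAP1-AS1, named for a postsynaptic scaffold, had 27.5, 31.8 and 41.4 CPM in dTAG, against 14.6, 18.1 and 20.4 CPM in DMSO, and rose by 0.87 ± 0.11 (adjusted p = 2.5e-05). DLGAP1 had a change of 0.42 ± 0.15 that missed the threshold (adjusted p = 0.0654) and passed it in 2 of 18 alternative settings. These left out DMSO replicate 1 at 6 h (0.51; adjusted p = 0.0367) and dTAG replicate 1 at 8 h (0.50; adjusted p = 0.0405). CYYR1-AS1 had 8.6, 10 and 14.9 CPM in dTAG, against 2.18, 5.53 and 7.41 CPM in DMSO, and rose by 1.12 ± 0.24 (adjusted p = 0.00282), next to a sense gene that reached no more than 0.466 CPM in a library. RMDN2-AS1, named for a microtubule-associated protein, had 2.9, 3.25 and 5.21 CPM in dTAG, against 0.728, 1.75 and 2.1 CPM in DMSO, and rose by 1.26 ± 0.29 (adjusted p = 0.00431). Like ZMIZ1-AS1, these 3 RNAs had arms that did not overlap. With means of 3.6 CPM in dTAG and 1.54 CPM in DMSO, RMDN2-AS1 reached the naming minimum through the dTAG arm, where it was high. Its rise is partly set by this choice. The same may hold for NDUFV2-AS1, described below, with means of 3.46 and 1.7 CPM.

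In the remaining 3 named rises the arms overlapped. TMEM108-AS1 had 12.3, 17.1 and 21 CPM in dTAG, against 3.95, 10.3 and 17.8 CPM in DMSO, and rose by 0.91 ± 0.15 (adjusted p = 0.000272). LHFPL3-AS1 had 1.31, 4.41 and 5.59 CPM in dTAG, against 1.46, 1.89 and 3.01 CPM in DMSO, and rose by 1.04 ± 0.29 (adjusted p = 0.0179). Without dTAG replicate 2 at 6 h its change was 0.56 (adjusted p = 0.30), and it was called in 15 of 18 alternative settings. NDUFV2-AS1, named for a subunit of respiratory complex I, had 1.61, 3.76 and 5.43 CPM in dTAG, against 0.699, 1.84 and 2.18 CPM in DMSO. NDUFV2 is listed with no converted read in these libraries although cells at large use it, so that its level here, and the split of reads between the 2 genes, is uncertain. The rise of NDUFV2-AS1 of 1.03 ± 0.34 (adjusted p = 0.0404) missed the threshold in 11 of 18 alternative settings, with 0.69 (adjusted p = 0.25) without dTAG replicate 2 at 4 h and 0.73 (adjusted p = 0.254) without dTAG replicate 2 at 6 h.

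**Figure D2:**
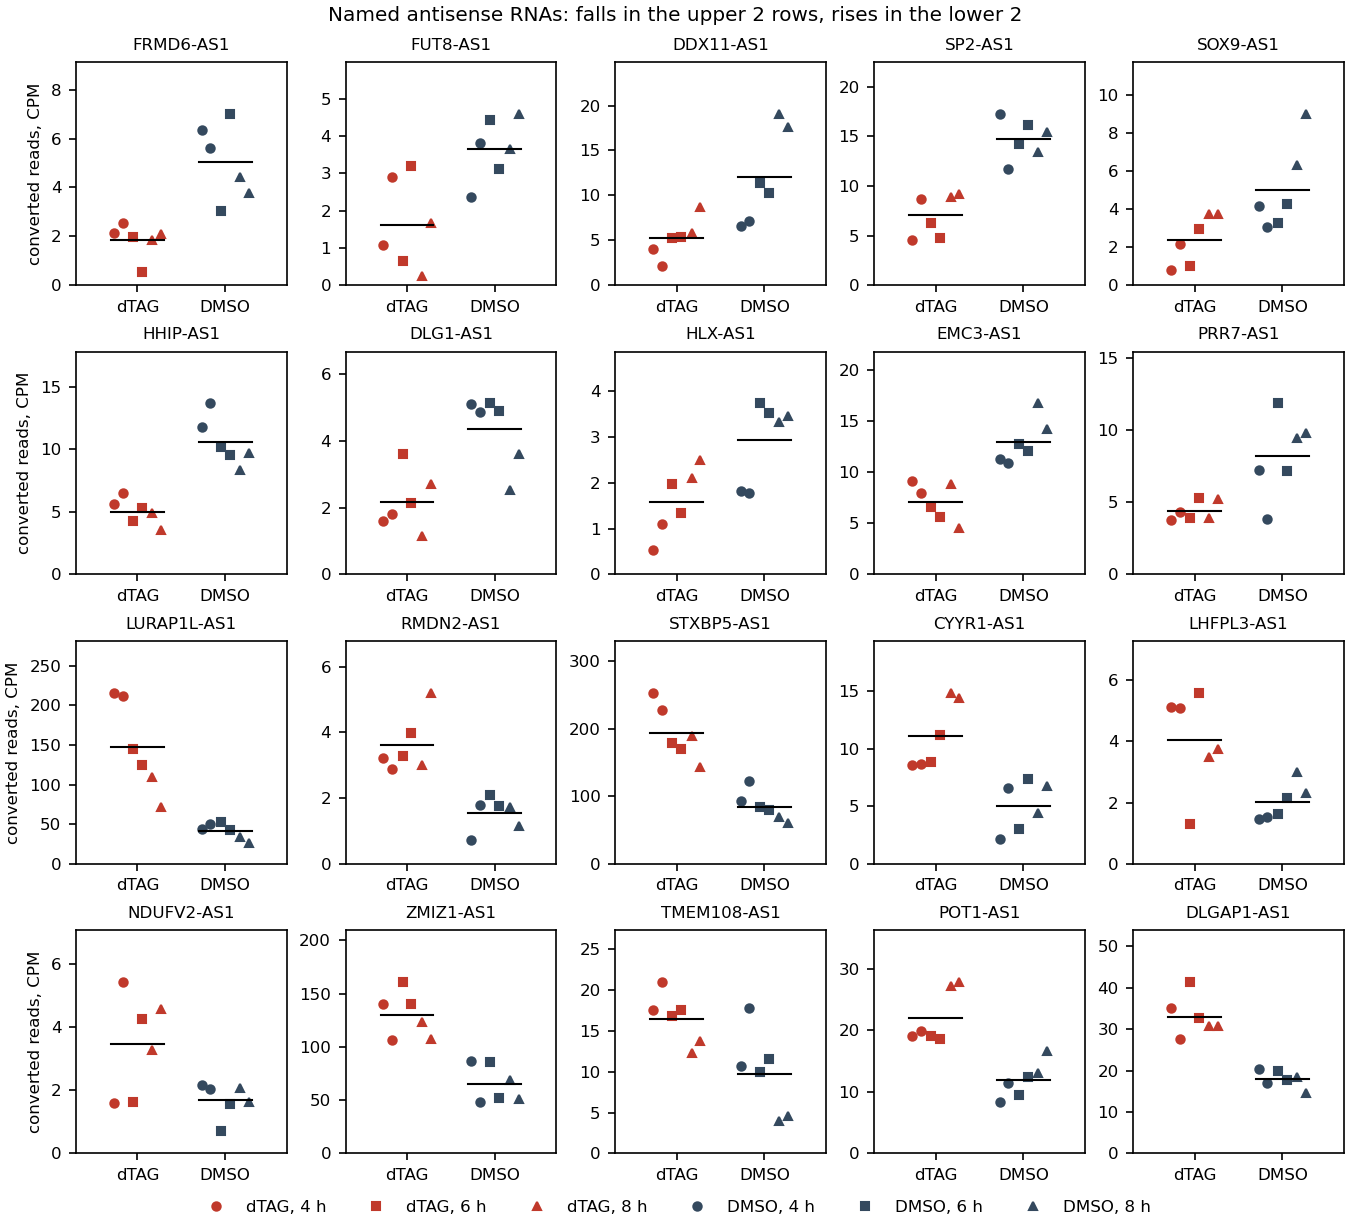
CPM of converted reads (y axis) of the 20 named antisense RNAs in each library, dTAG left of DMSO (x axis), with symbols for 4, 6 and 8 h and a bar at the mean of 6 libraries, falls in the upper 2 lines of panels and rises in the lower 2. The dTAG points of LURAP1L-AS1 lie between 72.3 and 215.6 CPM and its DMSO points between 26.8 and 52.6 CPM.

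Among the 5 most abundant of the RNAs, 2 changed. NR2F1-AS1, whose 5′ part overlaps that of the orphan nuclear receptor gene NR2F1, had 186, 223 and 271 CPM in dTAG, against 318, 350 and 450 CPM in DMSO. It fell by 0.70 ± 0.08 (adjusted p = 8.3e-06) without overlap of the arms, and NR2F1 had a change of -0.22 ± 0.08 (adjusted p = 0.0523). ZFPM2-AS1 had 187, 226 and 313 CPM in dTAG, against 134, 139 and 157 CPM in DMSO, also without overlap, and rose by 0.75 ± 0.09 (adjusted p = 1.0e-05). NUTM2B-AS1 (0.19 ± 0.08, adjusted p = 0.0989), NUTM2A-AS1 (0.13) and MSC-AS1 (0.03) did not pass the test. NUTM2A-AS1 and NUTM2B-AS1 come from duplicated loci of near-identical sequence, so the split of reads between them is uncertain.

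At the single times fewer RNAs were called. At 4 h 6 were lower and 10 higher, or 16 of 311, where 5.4% of all genes were called, 3.51% lower and 1.89% higher. At 6 h 12 were lower and 8 higher (7.09% of all genes, 4.72% lower and 2.38% higher). At 8 h 6 were lower and 12 higher (8.14% of all genes, 4.62% lower and 3.52% higher). Each arm had 2 libraries at each time. A fit without 1 of them has only 1 library in that group, so a lost call does not mark that library as unusual. Omissions that lowered the counts are given here, while some others raised them. At 4 h 7, 5 and 7 were called without DMSO replicate 1, dTAG replicate 1 and dTAG replicate 2 of that time. At 6 h 10, 12 and 8 were called without dTAG replicate 1, dTAG replicate 2 and DMSO replicate 2, and at 8 h 9 and 10 without DMSO replicate 1 and dTAG replicate 1. No antisense RNA had a drug effect that differed between the times at an adjusted p under 0.05 in edgeR's test, while 22 had an unadjusted p under 0.05. The smallest adjusted p was 0.143, for VLDLR-AS1, and 0.275% of all genes were called.

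Sense partners were tested in 288 pairs and 91 were called, 57 lower and 34 higher, or 31.6% against the 19.8% of all genes. Levels differ between these sets, and their part in the counts was not tested. In 24 of the 261 pairs with both genes tested, both were called. In 31 only the antisense RNA was called, in 57 only the sense gene and in 149 neither; these counts do not test a difference between the genes. Both genes moved the same way in 18 of the 24 pairs. In 9 of these both fell, among them FRMD6, FUT8, DDX11, SOX9, HHIP and DLG1 with the values above. HLX fell by 1.25 ± 0.38 (adjusted p = 0.0257), with 0, 1.51 and 2.96 CPM in dTAG against 1.74, 2.7 and 6.92 CPM in DMSO, and its call was lost, at 0.0525 to 0.068, in 6 of 18 alternative settings. These each left out 1 library, which was dTAG replicate 1 at 4 or 8 h, dTAG replicate 2 at 4 or 6 h, DMSO replicate 1 at 6 h or DMSO replicate 2 at 8 h. In the other 9 both rose, among them DIRC3, a long noncoding RNA gene that rose by 0.95 with 71.1, 84.1 and 133 CPM in dTAG against 41, 46.6 and 48.9 CPM in DMSO. DIRC3-AS1 rose by 0.77 ± 0.24, with 2.79, 5.52 and 7.53 CPM in dTAG against 0.949, 3.48 and 4.19 CPM in DMSO.

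Other pairs that rose together held a homeobox gene, a small GTPase and a peptidase. OTX2-AS1 rose by 0.72 ± 0.16, with 10.8, 15.6 and 27.7 CPM in dTAG against 6.55, 8.93 and 20.5 CPM in DMSO. OTX2, the homeobox gene, rose by 0.94 ± 0.10, with 23.5, 33.9 and 40.7 CPM in dTAG against 11.5, 18.4 and 21.7 CPM in DMSO. RAP2C-AS1 rose by 0.68 ± 0.09, with 61.7, 65.6 and 83.9 CPM in dTAG against 39.9, 43.3 and 48.1 CPM in DMSO. RAP2C, which encodes a Ras-related GTPase, rose by 0.63 ± 0.12, and neither gene of this pair had overlapping arms. TRHDE-AS1, inside the gene of the enzyme that degrades thyrotropin-releasing hormone, rose by 0.79 ± 0.08, with 112, 135 and 172 CPM in dTAG against 58.8, 79.4 and 93.4 CPM in DMSO. TRHDE rose by 0.52 ± 0.08, with 399, 431 and 504 CPM in dTAG against 280, 303 and 374 CPM in DMSO, again without overlap.

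In 6 pairs the genes moved in opposite directions. ZFPM2, a cofactor of GATA factors, fell by 0.67 ± 0.10 while ZFPM2-AS1 rose, with 53.5, 87.1 and 129 CPM in dTAG against 80.6, 116 and 248 CPM in DMSO. USP2-AS1 fell by 0.61 ± 0.21, with 3.72, 5.22 and 7.71 CPM in dTAG against 6.36, 8.17 and 11.2 CPM in DMSO, while the deubiquitinase gene USP2, whose start is 51 bp away, rose by 1.01 ± 0.26. USP2 had 3.33, 4.15 and 5.91 CPM in dTAG against 0.821, 2.08 and 3.82 CPM in DMSO. GNAS-AS1 fell by 0.48 beside a rise of 0.23 of GNAS, the gene of the stimulatory G protein alpha subunit. Rises of RAB30-AS1 (0.23), GMDS-AS1 (0.32) and NOP14-AS1 (0.38) stood beside falls of RAB30 (-0.50), GMDS (-0.27) and NOP14 (-0.32).

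The pairs were also described by the arrangement of their genes. Over the 261 pairs, 148 had the same sign and 113 opposite signs. The log2 changes of antisense and sense gene had a Pearson correlation of 0.42 (Spearman 0.31) in 136 head-to-head pairs and 0.44 (0.37) in 28 pairs with overlapping 5′ parts. They had 0.10 (0.11) in 42 pairs with one gene inside the other and -0.06 (-0.02) in 54 tail-to-tail pairs. These values are descriptions across pairs that share libraries and depth, and the difference between arrangements was not tested. Both genes were called in 24 of the 261 pairs. These were 11 of 136 head-to-head pairs, 3 of 28 with overlapping 5′ parts, 6 of 42 with one gene inside the other, 3 of 54 tail to tail and 1 pair apart.

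**Figure D3:**
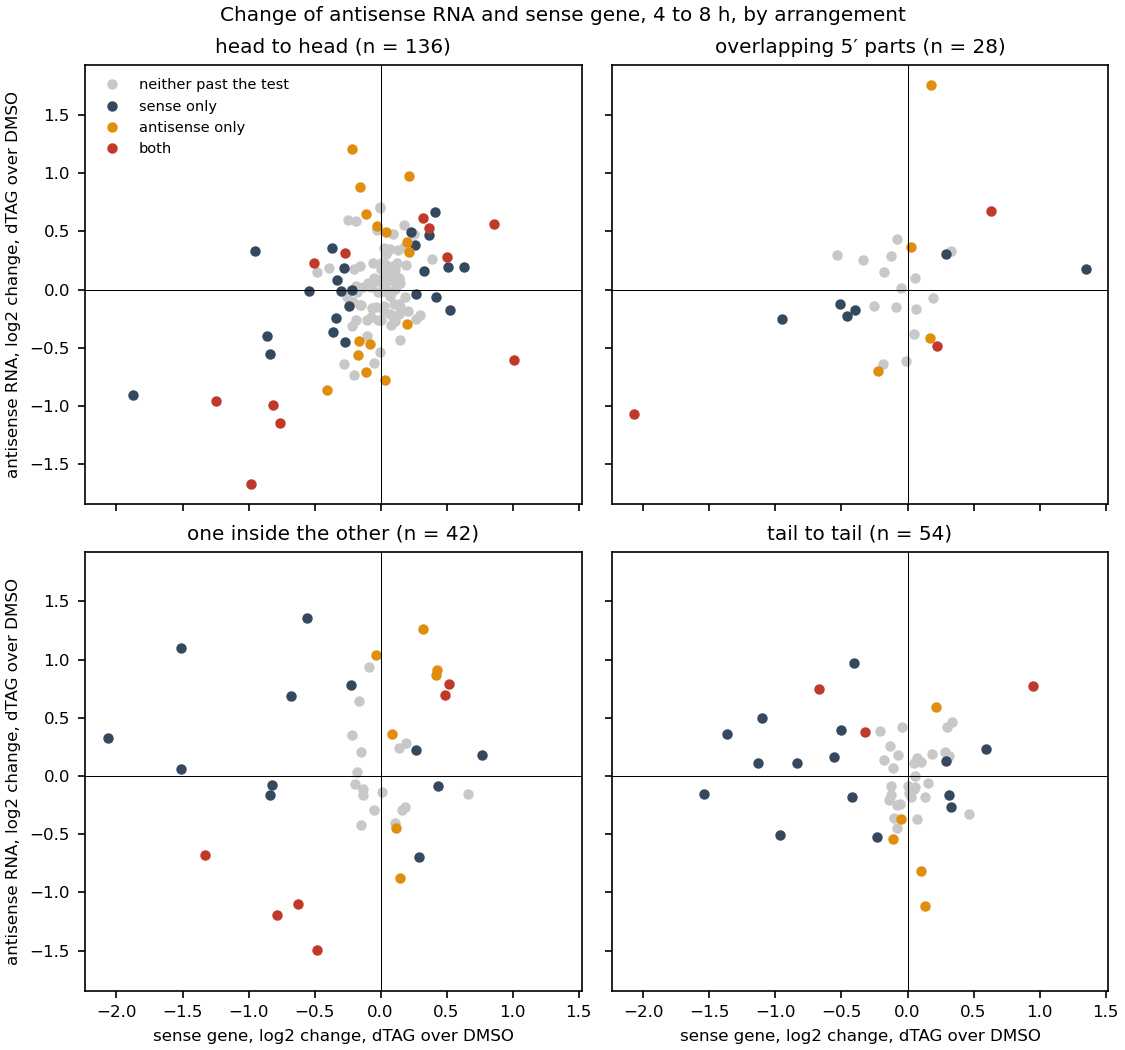
Log2 change (dTAG over DMSO, mean of 4, 6 and 8 h) of the sense gene on the x axis and of its antisense RNA on the y axis, 1 point per pair, in panels for the 4 arrangements with 136, 28, 42 and 54 pairs. The Pearson correlation is 0.42 in head-to-head pairs and -0.06 in tail-to-tail pairs.

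Whether an antisense RNA changed relative to its partner was tested on the log2 ratio of antisense to sense converted reads (0.5 added to each), over 283 pairs of which 261 are described here. In an exact permutation test within times, two-sided, 39 of the 261 pairs reached the smallest p that the design allows (0.00926). Of these, 24 had a gain of antisense over sense and 15 a loss. Over all 283 pairs 43 reached it. At an unadjusted p under 0.05 there were 78 of the 261, and 30.4% of all 283 pairs. After Benjamini-Hochberg adjustment over the 283 pairs the smallest value was 0.0609, so this test called none. With limma on the same ratios, chosen after seeing the data, 65 of the 261 pairs were called, 39 gains and 26 losses, where 25.4% of all pairs were called. Of these 65, 36 were also at the smallest permutation p. The arms of 21 of the 261 pairs did not overlap, a count given as a description only, without the share over all 283 pairs.

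The largest shifts at the smallest permutation p were gains of antisense over sense in VCAN, THSD4, ZNRF3 and SLC8A1. In each, the sense gene fell and the antisense RNA had a positive change that did not pass the test. The log2 ratio of THSD4-AS1 to THSD4, a gene of matrix microfibrils, was -5.39 ± 1.06 in dTAG and -7.75 ± 0.93 in DMSO (SD, n = 6 each), a difference of 2.35 (limma, adjusted p = 1.93e-05). THSD4 fell by 2.06 ± 0.09, with 96.6, 113 and 159 CPM in dTAG against 413, 502 and 574 CPM in DMSO, and THSD4-AS1 had 1.46, 2.46 and 8.34 CPM in dTAG against 0.821, 2.26 and 4.58 CPM in DMSO. The log2 ratio of SLC8A1-AS1 to SLC8A1, the sodium-calcium exchanger, was -2.14 ± 0.62 in dTAG and -3.86 ± 0.44 in DMSO, a difference of 1.72 (limma, adjusted p = 1.75e-09). SLC8A1 fell by 1.37 ± 0.09, with 49.9, 75.3 and 94.4 CPM in dTAG against 140, 166 and 283 CPM in DMSO, and SLC8A1-AS1 had 8.75, 15.8 and 23.7 CPM in dTAG against 6.89, 11.6 and 26.5 CPM in DMSO. The ratios of both pairs did not overlap between the arms.

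VCAN-AS1 and ZNRF3-AS1 reached the minimum of 5 converted reads through the dTAG arm, so their gains are partly set by the choice of RNAs and are given as descriptions. VCAN-AS1 had 0.266, 0.869 and 5.43 CPM in dTAG and 0, 0.528 and 2.29 CPM in DMSO, with means of 7 converted reads in dTAG and 3.67 in DMSO. VCAN, the gene of versican, a large proteoglycan of the matrix, fell by 1.51 ± 0.10, with 510, 579 and 747 CPM in dTAG against 1210, 1750 and 2030 CPM in DMSO. The log2 ratio was 2.85 higher in dTAG, with -8.71 ± 1.39 in dTAG and -11.6 ± 1.69 in DMSO (SD, n = 6 each), and the arms overlapped. ZNRF3-AS1 had 1.09, 1.52 and 2.92 CPM in dTAG and 0.158, 0.566 and 1.64 CPM in DMSO, with means of 7.17 converted reads in dTAG and 3.83 in DMSO. ZNRF3, a ubiquitin ligase that removes Wnt receptors, fell by 0.56 ± 0.10, with 42, 55.2 and 66.5 CPM in dTAG against 73.1, 78.2 and 94.7 CPM in DMSO. The log2 ratio of this pair was 2.06 higher in dTAG, and its arms did not overlap.

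**Figure D4:**
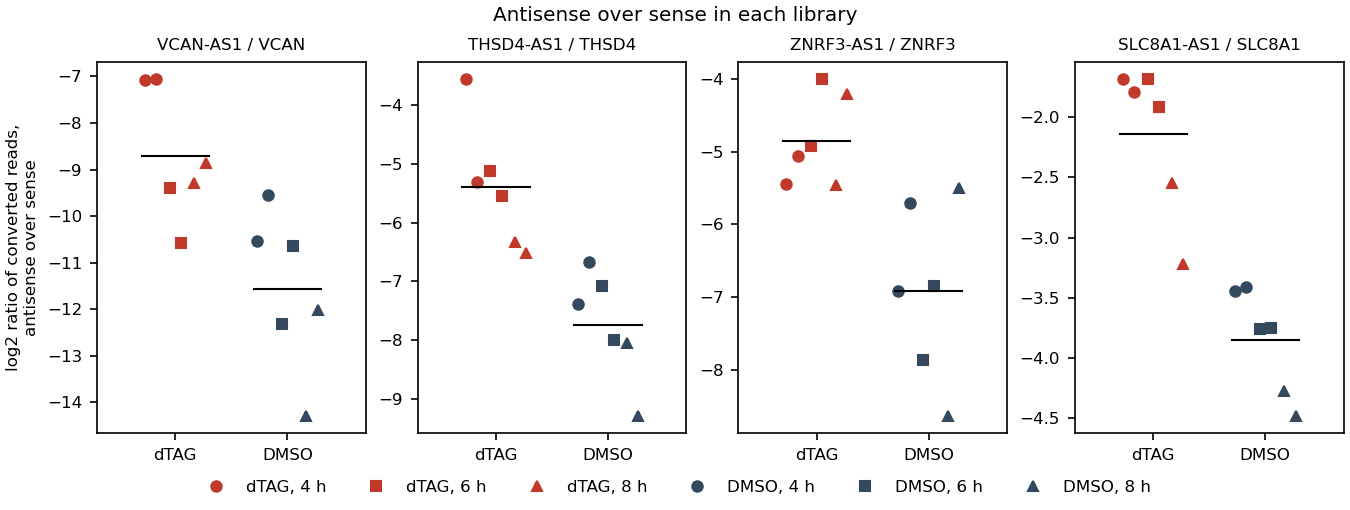
Log2 ratio of antisense to sense converted reads (y axis, 0.5 added to each count) in every library for 4 pairs, dTAG left of DMSO (x axis), with symbols for 4, 6 and 8 h and a bar at the mean of 6 libraries. For SLC8A1-AS1 the dTAG points run from -3.22 to -1.68 and the DMSO points from -4.49 to -3.41.

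The other libraries of RPE-1 cells were not used by the rule on levels. Over 30 to 120 min of the mitosis series 265 of the RNAs were tested, and 0 were lower and 3 higher in dTAG, where 1.28% of all genes were called (0.76% lower and 0.521% higher). LURAP1L-AS1 rose by 0.82 ± 0.21 (adjusted p = 0.035), with 100, 186 and 112 CPM in dTAG at 120 min against 41.5, 77.6, 26.6 and 49.4 CPM in DMSO. OTX2-AS1 rose by 0.83 ± 0.19 (adjusted p = 0.016), with 17.5, 22.6 and 21.2 CPM in dTAG at 120 min against 10.5, 10.6, 4.99 and 5.43 CPM in DMSO. OTX2 rose with it by 0.75 ± 0.11 and had 69.1, 67.3 and 41.4 CPM in dTAG at 120 min against 33.6, 30.8, 21.6 and 17.5 CPM in DMSO. TRHDE-AS1 rose by 0.48 ± 0.11 (adjusted p = 0.019), with 102, 173 and 133 CPM in dTAG at 120 min against 52.6, 82.9, 68.2 and 102 CPM in DMSO. For LURAP1L-AS1 and OTX2-AS1 the arms at 120 min did not overlap, and those of TRHDE-AS1 met at 102 CPM. Earlier, the arms of LURAP1L-AS1 overlapped at 30 and 60 min and not at 90 min, and those of OTX2-AS1 overlapped at 30, 60 and 90 min. Leaving out replicate 1, 2, 3 or 4 at every time left 1, 0, 0 and 0 calls, so LURAP1L-AS1 and OTX2-AS1 missed the threshold (adjusted p from 0.0551 to 0.31) without any 1 of the 4 replicate numbers.

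In the release series 4 of 263 RNAs were lower and 6 higher, where 2.28% of all genes were called (1.81% lower and 0.467% higher). FRMD6-AS1 fell by 1.31 ± 0.18 (adjusted p = 7.6e-05), with 1.4, 0.752 and 1.21 CPM in dTAG at 120 min against 4.3, 8.04 and 6.64 CPM in DMSO. INHBA-AS1, named for the activin beta A subunit, fell by 1.14 ± 0.22 (adjusted p = 0.003), with 2.11, 1.0 and 1.38 CPM in dTAG at 120 min against 3.94, 3.77 and 3.43 CPM in DMSO. SEC24B-AS1, named for a coat protein of secretory vesicles, rose by 0.62 ± 0.16 (adjusted p = 0.044), with 9.82, 12.3 and 19.4 CPM in dTAG at 120 min against 10.4, 7.29 and 13.7 CPM in DMSO. The arms of FRMD6-AS1 overlapped at 30 min and not at 60, 90 or 120 min, those of INHBA-AS1 overlapped at 30 and 60 min and not at 90 or 120 min, and those of SEC24B-AS1 overlapped at 30, 90 and 120 min and not at 60 min. The other called RNAs were NR2F1-AS1 (-0.35) and ZFHX4-AS1 (-0.49), and PAX8-AS1, TRHDE-AS1, NUP50-AS1, ZNF561-AS1 and NIFK-AS1 with 0.30 to 0.49. Without replicate 1, 2 or 3, the counts were 1, 0 and 4, and FRMD6-AS1 missed the threshold without replicate 2 (adjusted p = 0.125, and 7.6e-05 to 0.125 over its alternatives). INHBA-AS1 and SEC24B-AS1 missed it without any 1 replicate number, at 0.0589 to 0.356. LURAP1L-AS1 and STXBP5-AS1 had changes of 0.18 and 0.11 in this series and did not pass the test.

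After 120 min of 4sU in the mitosis series 4 of 338 RNAs were lower and 2 higher, where 2.46% of all genes were called (2.05% lower and 0.41% higher). FRMD6-AS1 fell by 1.17 ± 0.26 (adjusted p = 0.025), with 4.45, 4.79 and 3.15 CPM in dTAG against 10.3, 10.7 and 7.12 CPM in DMSO. FUT8-AS1 fell by 1.22 ± 0.29 (adjusted p = 0.038), with 1.98, 1.83 and 2.46 CPM in dTAG against 4.86, 5.4 and 4.11 CPM in DMSO. HLX-AS1 fell by 1.60 ± 0.39 (adjusted p = 0.046; 0.068 with the replicate block), with 0.679, 0.493 and 0.547 CPM in dTAG against 1.64, 2.23 and 1.42 CPM in DMSO. The arms of the 3 RNAs did not overlap. DNMBP-AS1, named for an exchange factor of the GTPase Cdc42, rose by 1.35 ± 0.32 (adjusted p = 0.041; 0.059 with the replicate block), with 3.58, 5.77 and 3.83 CPM in dTAG against 1.57, 2.16 and 1.42 CPM in DMSO. TMCC1-AS1 (-0.92; adjusted p = 0.0574 with the replicate block) and ZMIZ1-AS1 (0.94) were called too. Without replicate 1, 2 or 3 the counts were 2, 0 and 3. FUT8-AS1, HLX-AS1, DNMBP-AS1 and TMCC1-AS1 missed the threshold without any 1 of the 3 (0.0773 to 0.673), FRMD6-AS1 without replicate 1 or 2 (0.22 and 0.438) and ZMIZ1-AS1 without replicate 2 or 3 (0.366 and 0.0829).

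With the drug given only after release, FRMD6-AS1 and INHBA-AS1 were the 2 of 338 RNAs called after 120 min of 4sU, where 0.718% of all genes were called (0.646% lower and 0.0724% higher). FRMD6-AS1 fell by 2.23 ± 0.29 (adjusted p = 0.0014), with 0.842, 1.01 and 1.48 CPM in dTAG against 5.51, 4.86 and 5.53 CPM in DMSO. INHBA-AS1 fell by 1.48 ± 0.27 (adjusted p = 0.02), with 1.43, 1.01 and 1.42 CPM in dTAG against 2.95, 4.65 and 3.18 CPM in DMSO. Neither RNA's arms overlapped. Its partner INHBA had 624, 689 and 783 CPM in dTAG and 1080, 905 and 1010 CPM in DMSO and did not pass the test (adjusted p = 0.392). Without replicate 1, 2 or 3 there were 0, 0 and 1 calls. The drug effect did not differ between the series at an adjusted p under 0.05 for any of the 338 RNAs in edgeR's test, with 13 at an unadjusted p under 0.05 and 0.0% of all genes called.

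In the cardiomyocytes 2 of 304 RNAs were lower and 5 higher, where 4.83% of all genes were called (3.65% lower and 1.18% higher). In the neurons 3 were lower and 4 higher, where 2.24% were called (1.66% lower and 0.574% higher). VLDLR-AS1, named for a receptor of lipoproteins and reelin, was called in both. In cardiomyocytes it fell by 0.93 ± 0.21 (adjusted p = 0.031), with 17.4 and 27.4 CPM in dTAG against 41.9 and 43.7 CPM in DMSO, and VLDLR fell by 1.33 ± 0.11, with 32.5 and 38.2 CPM in dTAG against 91 and 86.6 CPM in DMSO. In neurons it fell by 1.03 ± 0.23 (adjusted p = 0.047), with 19.8 and 12.5 CPM in dTAG against 35.5 and 29.9 CPM in DMSO, and VLDLR fell by 1.37 ± 0.13, with 16.2 and 13.7 CPM in dTAG against 38.3 and 38.8 CPM in DMSO. No arms overlapped in either type. In cardiomyocytes the call was lost, at 0.0508 to 0.0918, without dTAG replicate 1 or DMSO replicate 1 or 2 of that type or without DMSO replicate 1 or 2 of the neurons. SNAI3-AS1, named for a Snail family factor, rose by 0.98 ± 0.22 in cardiomyocytes (adjusted p = 0.027), with 14 and 17.1 CPM in dTAG against 8.26 and 7.47 CPM in DMSO. In neurons it rose by 1.03 ± 0.23 (adjusted p = 0.046), with 17.7 and 12.8 CPM in dTAG against 8.76 and 6.1 CPM in DMSO.

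In neurons TRHDE-AS1 fell by 0.92 ± 0.16 (adjusted p = 0.011), with 15.7 and 16.3 CPM in dTAG against 30.2 and 30.5 CPM in DMSO. TRHDE fell with it by 0.92 ± 0.18, with 45.9 and 39.0 CPM in dTAG against 82.5 and 77.9 CPM in DMSO. MEF2C-AS1 (-0.82), MCM3AP-AS1 (0.81), MMP24-AS1 (0.66) and NR2F2-AS1 (0.49) were the other calls. The effect on NR2F2-AS1 was the 1 of 304 that differed between neurons and cardiomyocytes, by 0.85 (adjusted p = 0.0491), where 0.595% of all genes were called. In cardiomyocytes DIRC3-AS1 rose by 1.88 ± 0.48 (adjusted p = 0.047), with 1.95 and 1.88 CPM in dTAG against 0.529 and 0.482 CPM in DMSO. SLC7A11-AS1, named for the cystine-glutamate exchanger, rose by 1.27 ± 0.32 (adjusted p = 0.046), with 3.62 and 3.76 CPM in dTAG against 1.27 and 1.81 CPM in DMSO. Both missed the threshold, at 0.0687 to 0.185 for DIRC3-AS1 and 0.082 to 0.275 for SLC7A11-AS1, when any 1 of the 8 libraries of both cell types was left out. The cardiomyocyte count was 1, 4 and 2 without DMSO replicate 1, DMSO replicate 2 and dTAG replicate 2 of that type, and 2 or 3 without any 1 neuron library. The neuron count was 0 or 1 without any 1 neuron library, and VLDLR-AS1, SNAI3-AS1 and TRHDE-AS1 each missed the threshold there, at 0.0584 to 0.455. SNAI3-AS1 in cardiomyocytes missed it, at 0.0763 to 0.131, without DMSO replicate 1 or 2 or dTAG replicate 2 of that type.

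**Figure D5:**
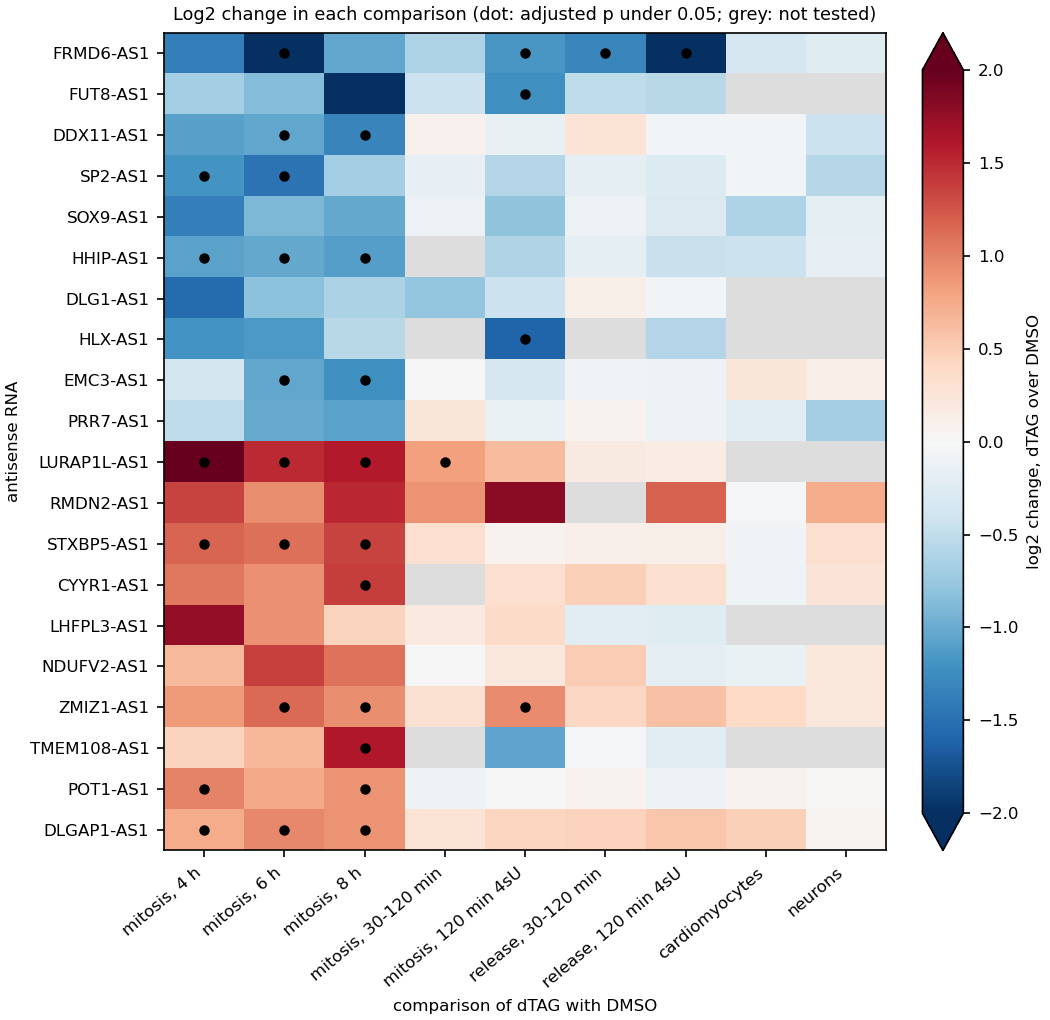
Log2 change (colour, dTAG over DMSO) of the 20 named antisense RNAs (down the page) in 9 comparisons (across), with a dot for an adjusted p under 0.05 and grey where the RNA was not tested. FRMD6-AS1 has -1.50 over 4 to 8 h, -1.31 in the release series and -2.23 after 120 min of 4sU with the drug given after release.

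Antisense RNAs named -AS or with a higher number were a small group by the same test at 4 to 8 h. Of 150 such genes 22 were tested, with a median change of 0.06. Of the 22, 5 were called, where 19.8% of all genes were called (10.7% lower and 9.07% higher). HIF1A-AS2 (0.71 ± 0.11), DLGAP1-AS2 (0.93 ± 0.12) and PAPPA-AS2 (1.20 ± 0.41) rose, while GAS6-AS2 (-1.14 ± 0.21) and MAGI2-AS3 (-0.34 ± 0.09) fell. None of 3 overlapping transcripts with names ending in -OT and a number passed the test. NIPBL RNA changed by 0.36 ± 0.07 over 4 to 8 h (adjusted p = 0.00204), and since the degrader acts on the protein this does not check the labels.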

How the data were processed

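The labels give RNA of RPE-1 cells, cardiomyocytes and neurons, extracted with TRIzol, alkylated with a SLAM-seq kit and made into total RNA libraries after removal of ribosomal RNA. Per the submitters' processing notes, reads were processed with HISAT, Picard and HTSeq against hg38; the order and options are not given in the sources used here. The authors deposited, per gene and library, whole-number counts of reads with a T-to-C conversion and counts of all reads, with no normalisation across libraries. A gene missing from a library's file was taken as 0. Genes of the Y chromosome and around the X inactivation centre are not reported.

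Converted read counts of all genes were tested with edgeR 4.0.16's quasi-likelihood test in R 4.3.3 (TMM, minimum count 10, minimum total 15, two-sided, Benjamini-Hochberg over all genes tested, threshold 0.05), with 1 fit for each of the 4 to 8 h, earlier mitosis, release, 120 min label and cardiomyocyte and neuron libraries. A contrast averaged the dTAG minus DMSO differences over times. Pair ratios were tested by exact permutation within times and with limma 3.58.1. DESeq2 1.42.0 was an alternative, and Python 3.11.15, numpy 2.4.6, pandas 2.3.3, matplotlib 3.10.9 and the R package data.table, version 1.17.8, were used. The procedures were tested on simulated data.

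The members, lists, tests and the naming rule were chosen with earlier results of these data known. The rule named the 10 largest falls and 10 largest rises at 4 to 8 h among called RNAs with a mean of at least 10 converted reads and 1 direction at the 3 times, their sense genes, the 5 RNAs with the highest level, the RNAs at the threshold, the largest pair shifts and the largest called changes in the other comparisons. Other RNAs were named after their values were seen. Alternatives were DESeq2 and its size factors, no filter, all-read totals or all reads, the replicate block and leaving out replicates.

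Libraries of equal replicate number counted as paired if their deviations from their group averages correlated above 0.1 in every one of at least 3 pairs. By the data and not the labels, this held after 120 min of 4sU in the mitosis series (0.154 to 0.706), at its 0 min (0.194 to 0.563) and, with the short label, 120 min after release in the release series (0.258 to 0.436). Total converted reads ran from 0.419 to 35.4 M (M for 1e6) per library, and RNAs with few reads have the widest errors.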

Additional observations from a re-analysis of the deposited data

Results flagged for a closer look

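OTX2-AS1 had 3.66, 4.66, 5.32 and 13.4 CPM in the 4 dTAG libraries of the mitosis series at 0 min. The gap of the highest to the next was 0.83 of the range, above the critical value for 4 samples. Of 18 combinations of an RNA with a group of 4 libraries examined, chance picks out about 1 in 20.

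The drug effect on NR2F2-AS1, named for an orphan nuclear receptor gene, differed between neurons and cardiomyocytes by 0.846 on the log2 scale (adjusted p = 0.0491; 0.595% of all genes called). It had 697 and 652 CPM in dTAG neurons against 479 and 481 CPM in DMSO neurons, and 34.8 and 38.2 CPM in dTAG cardiomyocytes against 52.8 and 40.2 CPM in DMSO cardiomyocytes. The call was lost in 8 of 14 alternative settings, among them the replicate block (adjusted p = 0.11), and its adjusted p ran from 5.8e-08 to 0.235 over them.

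TRHDE-AS1 had a log2 change of -0.922 in neurons and of 0.79 in RPE-1 cells at 4 to 8 h. The difference between these was not tested, since the cells were fitted apart and their label times differ.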

How the results depend on the processing

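Over 4 to 8 h the count of called RNAs was 62, against 39 with DESeq2 (18 lower and 21 higher, the 39 shared with the 62), 72 with all reads (44 and 28), 68 with the replicate block (30 and 38, with the 62 among them) and 45 to 60 without 1 library; for sense genes it was 72 to 87. With all reads, 25 were called at 4 h (16 in the main setting) and 32 at 6 h (20). Leaving out 1 library gave 5 to 17, 8 to 21 and 9 to 24 at 4, 6 and 8 h. At 30 to 120 min of the mitosis series (3 called) there were 1 with all-read totals, 0 with all reads, 7 with the replicate block and 0 to 3 without a replicate. In the release series (10) there were 5, 3, 17 and 0 to 4 in the same order, and all-read totals moved the median of all genes by 0.116. After 120 min of 4sU in the mitosis series (6) there were 13 with DESeq2, 12 without a filter, 0 with all-read totals, 0 with all reads and 0 to 3 without a replicate. In the release series (2) these gave 4, 4, 1, 0 and 0 to 1. Cardiomyocytes (7) had 4 with DESeq2, 15 without a filter, 2 with all reads, 2 with the replicate block and 1 to 10 without a library. Neurons (7) had 4 with all reads, 1 with the replicate block and 0 to 9 without a library. With the replicate numbers of cardiomyocytes crossed, 9 were called there and 8 in neurons. LHFPL3, with a change of -0.03, ran from -0.1036 to 0.0258 without 1 library, with 0.0258 without DMSO replicate 1 at 6 h and 0.023 without DMSO replicate 2 at 4 h. The cause of these shifts was not tested. Where the numbers pair the libraries, the block changed no call of a named RNA other than those given beside it. Depth limits the RNAs with few reads, 77 of which had a mean under 10.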

Other observations

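The antisense RNAs were also present in other cells, since 309 of the 344 had a mean of at least 5 converted reads in cardiomyocytes and 301 in neurons, though the label was longer there. In mitotic cells at 0 min 196 reached that mean. The left-out RNA EPB41L4A-AS1, with a mean of 160.5 converted reads, fell by 0.47 ± 0.11 over 4 to 8 h (adjusted p = 0.0057 in edgeR's test). By the same test SBF2-AS1, with a mean of 233.8, rose by 1.78 ± 0.10 (adjusted p = 1.2e-09). CYP1B1-AS1, with a mean of 46, rose by 1.22 ± 0.17 (adjusted p = 5.3e-05). GATA6-AS1 and HAS2-AS1, with means of 1.83 and 2.42, lay below the minimum of 5.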
